A study of Mus musculus with 7 samples.

Results

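Excitation-contraction coupling links the electrical signal at the surface of a muscle fibre to the release of calcium from its internal store, and 10 genes of this machinery are described here in C2C12 cells. The genes are Cacna1s, Cacnb1, Cacng1, Stac3, Ryr1, Ryr3, Casq2, Trdn, Atp2a1 and Atp2a2. They were chosen by symbol, with earlier results of these data known but by no rule on their values, and each had a row of its own among the 11642 rows of the deposited table. C2C12 is a line of mouse myoblasts that leave the cell cycle and fuse into myotubes when serum is withdrawn. Cells on day 2 of differentiation had received a scramble siRNA (si-SCR, 2 samples) or siRNA #1 against the long non-coding RNA lnc-SMaRT (si-SMaRT, 2 samples), and the study describes them as coming from independent populations of cells. All 4 samples come from this 1 line, kept in culture without nerve or load, and only 1 of the study's siRNAs was sequenced. Expression is given in RPKM, reads per kilobase of gene model scaled to the size of the library. A pull-down with probes against lnc-SMaRT and one with probes against LacZ added 1 library each, with an input library.

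In skeletal muscle an action potential spreads into the transverse tubules, where the voltage-gated calcium channel Cav1.1 senses it. Cav1.1 opens the ryanodine receptor of the facing sarcoplasmic reticulum through direct contact, with the adaptor STAC3 needed for this step. Calsequestrin holds calcium inside the store close to the release channel, triadin ties it there, and the SERCA pumps return calcium to the store after release. Many genes of this machinery are switched on as myoblasts differentiate. This occurs under the MyoD family, which binds the E-box letters CANNTG, and MEF2 factors, which bind an AT-rich site.

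Upstream sequence from RefSeq (GRCm38.p6, a patch release of the build GRCm38 that the authors used) was at hand for 5 of the 10 genes, in 6 windows of 250 bases before the start of transcription. The stretches below are shown because they hold the letters of these muscle sites in the calcium store gene Casq2, the voltage sensor gene Cacna1s and the pump gene Atp2a1. Capitals mark CANNTG and, in Casq2, also the AT-rich MEF2 consensus.
Casq2, chr3:102086335-102086374, plus strand, positions -80 to -41 from the start: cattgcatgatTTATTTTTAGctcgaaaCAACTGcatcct
Cacna1s, chr1:136052641-136052711, plus strand, positions -170 to -100: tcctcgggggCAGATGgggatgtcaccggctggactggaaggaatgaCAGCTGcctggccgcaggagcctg
Atp2a1, chr7:126463114-126463153, minus strand, positions -80 to -41: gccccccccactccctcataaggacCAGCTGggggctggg

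These positions count from the RefSeq start of each gene, while the gene spans given further on come from GENCODE M21, whose starts can differ. None of the stretches overlaps an exon of that annotation.

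CANNTG stood in 4 of the 6 windows, and it stood in 66.2% of all 32851 windows of this length. The form CAGCTG, which is one of the sequences CANNTG covers, stood in 2 of the 6 windows (Cacna1s and Atp2a1) and in 13.0% of all windows. The MEF2 consensus stood in 1 of the 6, that of Casq2, and in 2.92% of all windows. Both CANNTG and the MEF2 consensus read the same on either strand as patterns, so the counts cover both strands. Ryr1 had none of these letters in its window. A match is a description of the letters only, and no binding was measured here.

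The targeted transcript was low in both si-SMaRT samples. Lnc-SMaRT had 19.1 and 15.9 RPKM in the si-SCR samples and 2.88 and 3.65 RPKM in the si-SMaRT samples, a log2 fold change of -2.39 ± 0.28 (SE; limma, adjusted p = 0.000882). All 8 listed markers of differentiating muscle cells were in the table. Their levels summed to 8464 and 8911 RPKM in si-SCR and to 6449 and 4313 RPKM in si-SMaRT. Acta1 alone had 2778 and 3240 RPKM in si-SCR and 2553 and 1274 RPKM in si-SMaRT. Of the 8, 7 had a log2 fold change below 0, while Myod1 was at 0.26. In the test (limma) 0 of the 8 passed, with 3 at an unadjusted p under 0.05, and 1, Ckm, passed with voom. Of 10 listed markers of undifferentiated or proliferating myoblasts, 9 were in the table and 2 rose, Id3, which encodes an inhibitor of MyoD partners (1.60 ± 0.30, adjusted p = 0.0232), and Ccnd1, the cyclin D1 gene (1.36 ± 0.28, adjusted p = 0.0356). The 3 of 5 fibroblast markers in the table summed to 313 and 354 RPKM in si-SCR and to 587 and 354 RPKM in si-SMaRT. Most of this sum was the collagen gene Col3a1, at 272 and 298 RPKM in si-SCR and 481 and 312 RPKM in si-SMaRT. Pdgfra had 0.723 and 0.584 RPKM in si-SCR and 0.679 and 0.670 RPKM in si-SMaRT. None of the 3 endothelial markers was in the table, and of the 4 cardiac markers only Myh6 was, at 0.371 to 0.746 RPKM. In bulk samples, fewer differentiated cells and less RNA of a gene per cell cannot be told apart, and the part of these marker levels in the results below was not tested.

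No gene of the 10 passed the threshold between si-SMaRT and si-SCR (limma on log2(RPKM + 0.1), adjusted p under 0.05), against 0.505% of the 11086 genes tested, 20 higher and 36 lower. All 10 genes were tested, and 4 of them (Trdn, Casq2, Cacnb1 and Stac3) had an unadjusted p under 0.05. The share of all genes at that unadjusted level was not worked out. Such counts, here and for the markers and other lists, therefore have no background to be read against. The count of the 10 past the adjusted threshold was also 0 with voom on the reads recovered from the RPKM values. Every one of the 10 had a fold change below 0, with a median of -0.53 against 0.020 over all genes tested, and the values for Ryr1, Cacna1s and Atp2a2 changed sign when single samples were left out, that for Atp2a2 also under quantile normalization. In 6 of the 10 the higher si-SMaRT value was under the lower si-SCR value, which held for 20.4% of all genes tested. The 6 were Ryr3, Cacnb1, Cacng1, Stac3, Casq2 and Trdn, and among them the si-SMaRT mean ran from 47.4% of the si-SCR mean for Trdn and 51.9% for Casq2 to 74.96% for Cacng1, as the plot of RPKM by sample shows.

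**Figure D1:**
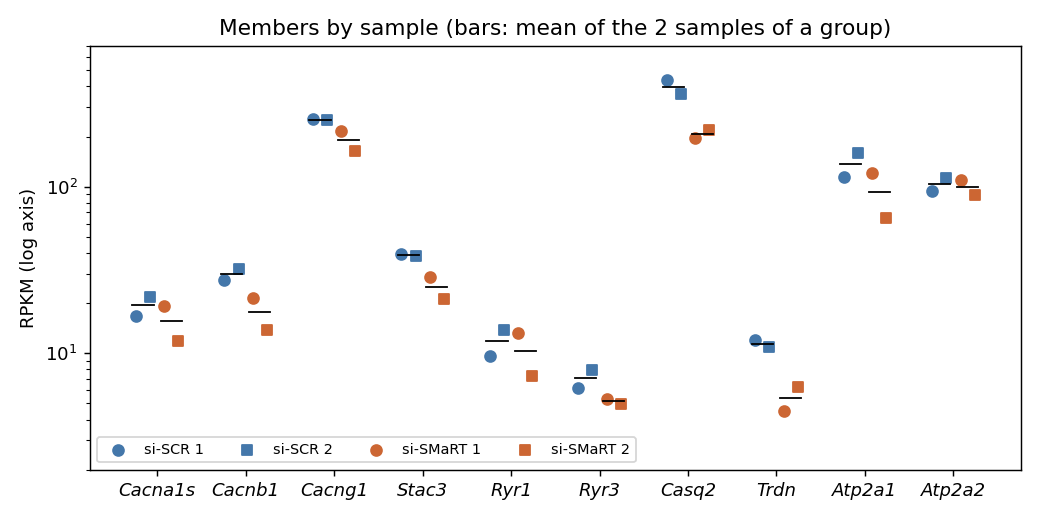
RPKM of the 10 genes (log axis) in si-SCR 1 and 2 (blue) and si-SMaRT 1 and 2 (orange), in the order voltage sensor, release channels, store proteins and pumps, with a bar at the mean of each group. Casq2 and Trdn had both si-SMaRT samples well below both si-SCR samples, while the groups of Ryr1, Cacna1s, Atp2a1 and Atp2a2 overlapped.

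The 2 si-SMaRT samples differed from each other along the GC content of the genes, and the 10 ran in the same direction (rank correlation -0.77). Trdn, Ryr3, Atp2a2 and Atp2a1 lay below the lower quartile of all genes in their GC bin of 2 percentage points. The part of this trend in the results was not tested beyond the fits with the trend removed. In the read counts given by the paper, si-SMaRT 1 also lost a larger share of read pairs at the rRNA and tRNA filter than any other sample. The part of that loss in the results was not tested. Over the 10017 tested genes with a GC value, the rank correlation of GC content (Spearman) was -0.84 with si-SMaRT 2 minus si-SMaRT 1 and 0.35 with si-SCR 2 minus si-SCR 1. With the si-SMaRT mean minus the si-SCR mean it was -0.31. Removing the trend of each sample therefore also takes out a trend between the groups, which this design cannot tell apart from the siRNA. These are descriptions across genes of the same libraries. The GC content of the 10 genes ran from 35.6% for Trdn to 59.4% for Cacnb1, and 6 of them (Cacna1s, Cacnb1, Cacng1, Stac3, Ryr1 and Atp2a1) lay above 54%. All 6 were lower in si-SMaRT 2 than in si-SMaRT 1, by 0.39 (Cacng1) to 0.89 (Atp2a1) on the log2 scale. Genes within 1 percentage point of the GC content of Atp2a1 had a median difference of -0.57, and those near Cacng1 one of -0.61.

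**Figure D2:**
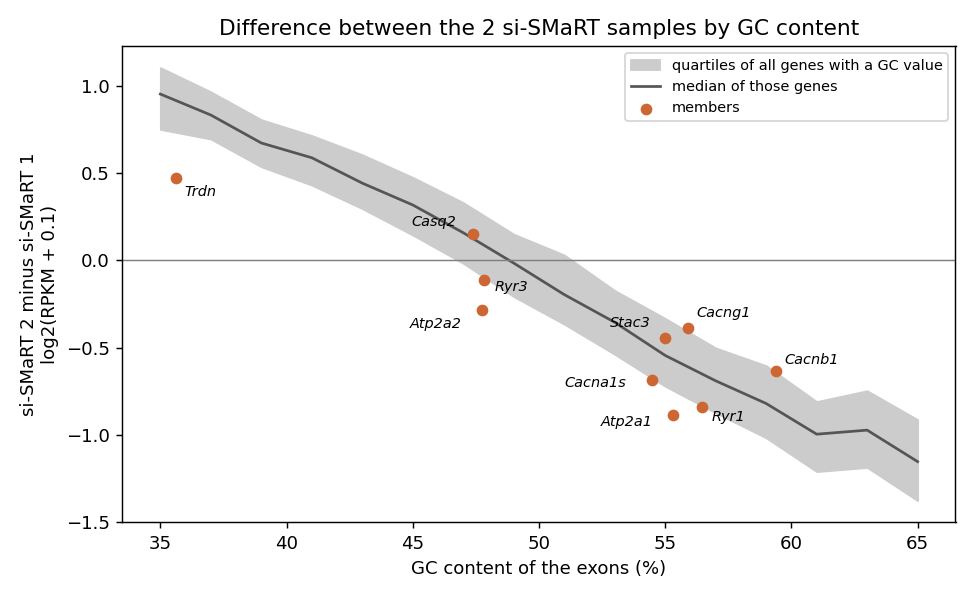
Difference between si-SMaRT 2 and si-SMaRT 1 on the log2(RPKM + 0.1) scale against GC content of the exons, in bins of 2 percentage points with at least 20 genes. The line is the median and the band the quartiles of the 10017 genes, and the members (orange) run from Trdn at 0.47 to Atp2a1 at -0.89.

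With the trend of each sample along GC content removed, 3 of the 10 genes passed, all lower in si-SMaRT: Trdn, Casq2 and Cacnb1. Of the 10017 genes in this fit, 2.85% passed as lower. The median of the 10 was -0.48 against -0.0035 over these genes, and in 7 of the 10, the same 6 and Atp2a1, both si-SMaRT values were under both si-SCR values, against 29.5% of all genes. With the trend along gene length removed as well, Ryr3 passed too, which made 4 of 10 against 3.17%, and calls over all genes then split into 277 higher and 318 lower. None of the 10 passed after GC removal when si-SCR 1 or si-SCR 2 was left out, where 1 and 0 of all genes passed. Without si-SMaRT 1 and with no GC removal, 8 of the 10 passed as lower against 14.9% of all genes, and without si-SMaRT 2 only Casq2 and Trdn passed, against 3.51%. The lone sample of a group was then assumed to vary like the others.

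**Figure D3:**
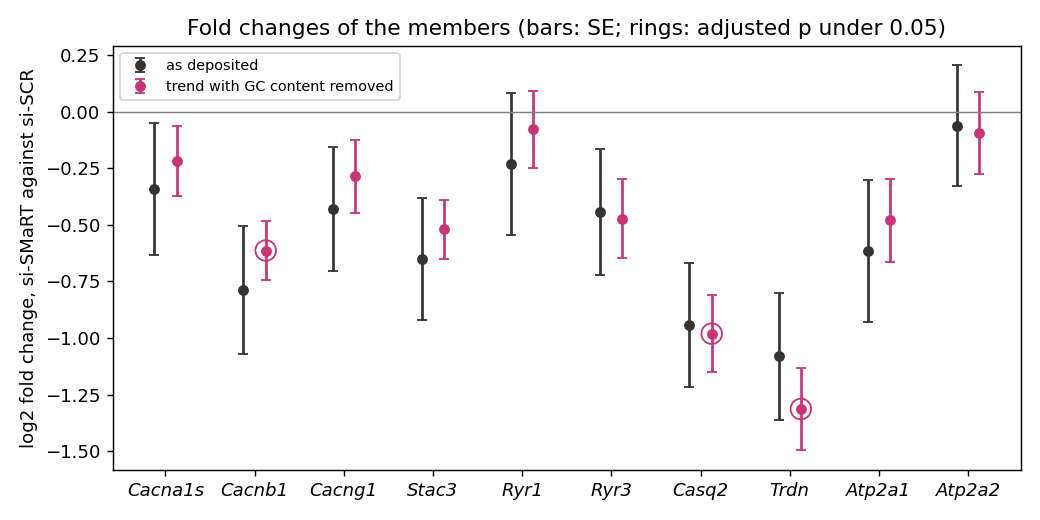
Log2 fold change of each gene, si-SMaRT against si-SCR, with its SE, from the values as deposited (black) and with the trend along GC content removed (pink), where rings mark an adjusted p under 0.05. Trdn, Casq2 and Cacnb1 have rings only after GC removal, and Atp2a2 stays near 0 in both fits.

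With all 4 samples the store proteins had the largest fold changes of the 10. Without si-SMaRT 1 and as deposited, however, Cacnb1 (-1.10), Atp2a1 (-1.06) and Stac3 (-0.87) exceeded Casq2 (-0.86) and Trdn (-0.85) in size. Leaving out the same sample after GC removal, a fit chosen after seeing the data, put Trdn (-1.57) and Casq2 (-0.98) first again. Atp2a1 was then at -0.67, Cacnb1 at -0.54 and Stac3 at -0.50. Casq2 encodes the calsequestrin known from heart and from embryonic and slow skeletal muscle, the main calcium-binding protein of the store. It had the highest level of the 10 in si-SCR, above 98.9% of all rows. It measured 435 and 361 RPKM in si-SCR and 196 and 218 RPKM in si-SMaRT. Both si-SMaRT samples were thus far below both si-SCR samples, at 51.9% of the si-SCR mean. The log2 fold change was -0.94 ± 0.27 (SE, n = 2 per group; limma, adjusted p = 0.179). With the GC trend removed it was -0.98 ± 0.17 (limma, adjusted p = 0.0195), and over the alternatives its adjusted p ran from 0.00229 to 1.00. The GC content of Casq2, 47.4%, lay where the 2 si-SMaRT samples differed little. Genes within 1 percentage point of it had a median difference between the groups of 0.024, and 1.82% of those 1100 genes had a lower one than Casq2. Casq2 lies at chr3:102086415-102146514 on the plus strand in 13 exon blocks, and its stretch with the MEF2 consensus stands above.

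Trdn encodes triadin, which anchors calsequestrin at the junction next to the ryanodine receptor. It had 11.9 and 10.9 RPKM in si-SCR and 4.51 and 6.30 RPKM in si-SMaRT. The groups did not overlap, and the si-SMaRT mean was 47.4% of the si-SCR mean. The log2 fold change was -1.08 ± 0.28 (SE, n = 2 per group; limma, adjusted p = 0.119). It was -1.31 ± 0.18 with the GC trend removed (limma, adjusted p = 0.00771), and the adjusted p ran from 1.07e-13 to 1.00 over the alternatives. Trdn had at least 230 reads in si-SMaRT 1, a lower limit, for a counting error of at most 6.59% in any sample. It spans chr10:33080554-33476709 on the plus strand in 38 exon blocks. The GENCODE model that gave its GC content is 9352 bases long and the length worked out from the RPKM values is 4514 bases or a multiple of it, so the GC content of the exons that were counted may differ. The same holds for Ryr1 (21838 against 15375 bases), Ryr3 (18977 against 17682) and Atp2a2 (6081 against 5293), and so for the ratios with the GC trend removed. Only 62 genes lay within 1 percentage point of its 35.6%.

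The voltage sensor is Cav1.1 with its subunits. Cacna1s, its pore-forming subunit (chr1:136052750-136119822, plus strand), had 16.8 and 21.9 RPKM in si-SCR and 19.2 and 11.9 RPKM in si-SMaRT. The groups overlapped, with si-SMaRT 1 between the 2 si-SCR samples and si-SMaRT 2 below all others. The log2 fold change was -0.34 ± 0.29 (limma, adjusted p = 0.806), and it was 0.000841 without si-SMaRT 2.

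Cacnb1 encodes the cytoplasmic beta subunit, which brings the channel to the membrane (chr11:98001508-98023034, minus strand, 18 exon blocks). It measured 27.5 and 32.2 RPKM in si-SCR and 21.5 and 13.8 RPKM in si-SMaRT. Its groups did not overlap, and the 2 si-SMaRT samples lay farther apart than the 2 si-SCR samples. The fold change was -0.79 ± 0.28 (limma, adjusted p = 0.332) and -0.61 ± 0.13 with the GC trend removed (limma, adjusted p = 0.0367, from 1.57e-06 to 1.00 over the alternatives). After that removal its values were 27.3 and 28.7 in si-SCR and 17.4 and 19.2 in si-SMaRT, in RPKM set to the common GC trend. The spread within the groups was then narrower than in the deposited values. As deposited, the fold change passed without si-SMaRT 1 (-1.10) and was -0.47 without si-SMaRT 2.

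Cacng1, the gamma subunit gene (chr11:107703218-107716522, minus strand), had the second highest level of the 10. Its values were 255 and 251 RPKM in si-SCR and 215 and 164 RPKM in si-SMaRT. The 2 si-SCR samples were close, and both si-SMaRT samples lay below them. The fold change of -0.43 ± 0.27 did not pass (limma, adjusted p = 0.694). It passed without si-SMaRT 1 (-0.62), and it was -0.23 without si-SMaRT 2 and -0.056 with GC and length trends removed.

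Stac3, the adaptor that joins the voltage sensor to release (chr10:127501686-127508823, plus strand), had 39.5 and 38.2 RPKM in si-SCR and 28.9 and 21.2 RPKM in si-SMaRT. Its groups did not overlap, and si-SMaRT reached 64.4% of si-SCR. The fold change was -0.65 ± 0.27 (limma, adjusted p = 0.440) and -0.52 ± 0.13 with the GC trend removed (limma, adjusted p = 0.0583). As deposited, it passed without si-SMaRT 1 (-0.87) and was -0.43 without si-SMaRT 2.

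The proportions of these genes within a sample are given as a description without a test. Cacng1 had 15.2 and 11.5 times the RPKM of Cacna1s in si-SCR and 11.2 and 13.8 times in si-SMaRT, which overlapped. Stac3 had 2.35 and 1.75 times the RPKM of Cacna1s in si-SCR and 1.504 and 1.78 times in si-SMaRT, which overlapped too. Cacna1s had 0.612 and 0.680 times the RPKM of Cacnb1 in si-SCR and 0.894 and 0.865 times in si-SMaRT. Only this last ratio was higher in both si-SMaRT samples than in both si-SCR samples.

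Of the release channels, Ryr1 is the skeletal muscle form that Cav1.1 opens, and Ryr3 is a related form of developing muscle. Ryr1 (chr7:29003344-29125179, minus strand, 109 exon blocks) had 9.68 and 13.9 RPKM in si-SCR and 13.2 and 7.35 RPKM in si-SMaRT. Its groups overlapped, and the 2 si-SMaRT samples were farther apart than the 2 si-SCR samples. The fold change was -0.23 ± 0.31 (limma, adjusted p = 0.888). It was 0.026 without si-SCR 2 and 0.19 without si-SMaRT 2, so its direction rested on single samples. Ryr3 (chr2:112631355-113217096, minus strand) had 6.20 and 7.92 RPKM in si-SCR and 5.34 and 4.93 RPKM in si-SMaRT. It had the lowest level of the 10 in si-SCR, near the middle of all rows, and its groups did not overlap. The fold change was -0.44 ± 0.28 (limma, adjusted p = 0.690), and it was -0.27 without si-SCR 2.

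Ryr1 exceeded Ryr3 in every sample. The ratio of their RPKM was 1.56 and 1.75 in si-SCR and 2.48 and 1.49 in si-SMaRT, and the si-SMaRT samples lay on either side of the si-SCR samples. The log2 difference of 0.21 gave p = 1.00 in a two-sided exact permutation test over the samples, and it was -0.15 without si-SMaRT 1. With 2 samples against 2 this test cannot give a p below 0.333. With the GC trend removed, the ratio was 1.54 and 1.55 in si-SCR and 2.03 and 2.03 in si-SMaRT, a log2 difference of 0.40 (exact permutation p = 0.333, the smallest possible). Trdn had 1.23 and 0.785 times the RPKM of Ryr1 in si-SCR and 0.341 and 0.857 times in si-SMaRT, and these groups overlapped. After GC removal it had 1.29 and 0.984 times in si-SCR and 0.526 and 0.433 times in si-SMaRT, without overlap.

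The pump genes encode SERCA1, the pump of fast fibres (Atp2a1), and SERCA2, the pump of slow and cardiac muscle and of most other cells (Atp2a2). Atp2a1 (chr7:126445858-126463108, minus strand, 23 exon blocks) had 115 and 159 RPKM in si-SCR and 120 and 64.9 RPKM in si-SMaRT. Its groups overlapped, with si-SMaRT 1 just above si-SCR 1 and si-SMaRT 2 far below. The fold change was -0.62 ± 0.31 (limma, adjusted p = 0.583), -1.06 without si-SMaRT 1 and -0.17 without si-SMaRT 2. Atp2a2 (chr5:122453513-122502225, minus strand) had 94.4 and 113 RPKM in si-SCR and 109 and 89.6 RPKM in si-SMaRT. Its groups overlapped, and its fold change of -0.061 ± 0.27 was the smallest in size of the 10 (limma, adjusted p = 0.970). It turned above 0 under quantile normalization (0.048), without si-SCR 2 (0.067) and without si-SMaRT 2 (0.081).

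The ratio of Atp2a1 to Atp2a2 was 1.22 and 1.41 in si-SCR and 1.101 and 0.724 in si-SMaRT. The ratio was thus lower in both si-SMaRT samples, by 0.55 on the log2 scale, with p = 0.333 in a two-sided exact permutation test, the smallest it can give. The difference was -0.86 without si-SMaRT 1 and -0.25 without si-SMaRT 2. With the GC trend removed the ratio was 1.202 and 1.27 in si-SCR and 0.933 and 0.960 in si-SMaRT (log2 difference -0.39, exact permutation p = 0.333). Atp2a1 has a higher GC content than Atp2a2 (55.3% against 47.7%), as Ryr1 has than Ryr3 (56.5% against 47.8%).

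**Figure D4:**
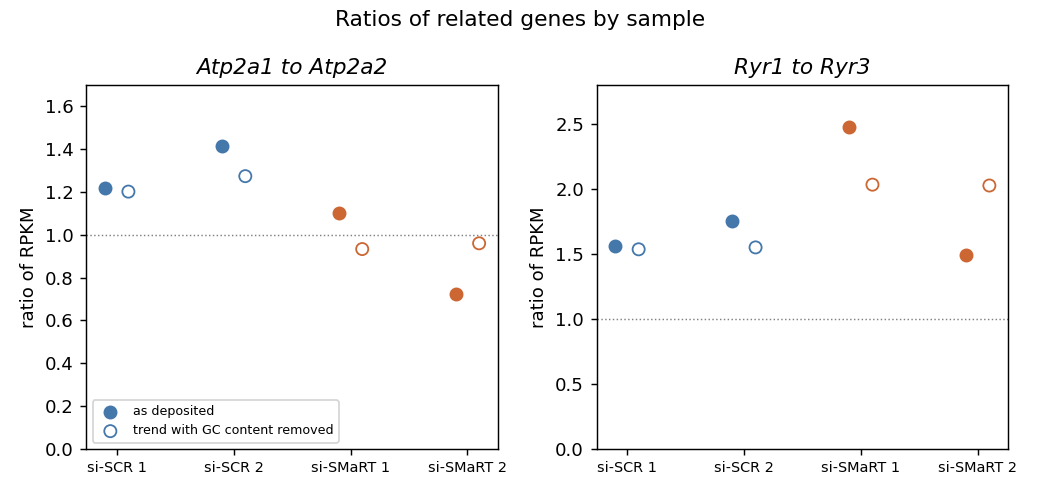
Ratio of the RPKM of Atp2a1 to Atp2a2 and of Ryr1 to Ryr3 in each sample, as deposited (filled) and with the trend along GC content removed (open), with a dotted line at 1. After GC removal the 2 si-SMaRT samples sit close together in both panels, at 0.933 and 0.960 for the pumps and at 2.03 and 2.03 for the release channels.

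In si-SCR the levels per length of the 10 genes ranked in the order Casq2, Cacng1, Atp2a1, Atp2a2, Stac3, Cacnb1, Cacna1s, Ryr1, Trdn and Ryr3. Neighbours in this order did not overlap between the 2 si-SCR samples, apart from Ryr1 and Trdn, whose means differed by 1.03 times. Atp2a1 exceeded Atp2a2 by 1.32 times, with the lowest Atp2a1 value, 115 RPKM, just above the highest Atp2a2 value, 113 RPKM.

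Other genes of calcium handling were taken from 8 lists, and 0 of the 68 tested passed (limma; 12 at an unadjusted p under 0.05, and 1, Hrc, passed with voom). Their median log2 fold change was -0.11, against -0.53 for the 10 genes and 0.020 for all genes tested. The list of the triad, the junction of tubule and store, came closest to the 10. It had 19 of 23 genes tested, 15 of them below 0, and a median of -0.40. Its lowest gene was Hrc, for a calcium-binding protein inside the store that binds triadin. Hrc had 76.6 and 74.7 RPKM in si-SCR and 39.4 and 31.9 RPKM in si-SMaRT, with a fold change of -1.09 ± 0.26 (limma, adjusted p = 0.0842). Its highest gene was Homer1, a scaffold protein of calcium channels, at 0.29 ± 0.30 (limma, adjusted p = 0.850), passing without si-SMaRT 1 (0.62) and below 0 without si-SMaRT 2 and with GC and length trends removed.

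**Figure D5:**
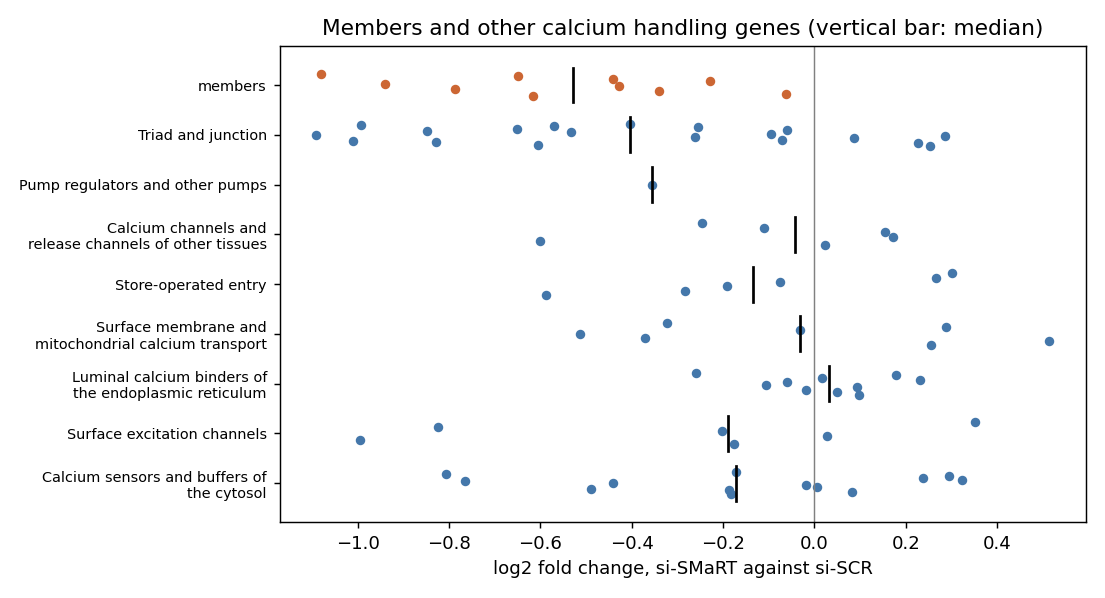
Log2 fold change, si-SMaRT against si-SCR, of the 10 members (orange) and of the tested genes of 8 other lists of calcium handling (blue), with the median of each list as a vertical bar. The members have a median of -0.53, the triad list one of -0.40, and the luminal binders of the endoplasmic reticulum one of 0.032.

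With the GC trend removed, 4 of 18 triad genes passed, all lower in si-SMaRT, against 2.85% of the 10017 genes in this fit. These 4 were named after their values were seen. They were Hrc (-0.99), Tmem38a (-0.88), a potassium channel gene of the store, Cav3 (-0.85), the muscle caveolin gene, and Casq1 (-0.76), the calsequestrin gene of fast muscle. Casq1 had 97.1 and 106 RPKM in si-SCR and 63.0 and 51.7 RPKM in si-SMaRT. Casq2 exceeded it by 4.48 and 3.41 times in si-SCR and by 3.11 and 4.204 times in si-SMaRT, which overlapped. After GC removal these ratios were 4.53 and 3.63 in si-SCR and 3.41 and 3.54 in si-SMaRT, which did not overlap.

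The remaining lists had medians nearer to 0. The list named for luminal calcium binders of the endoplasmic reticulum had 10 of 10 genes tested and a median of 0.032. It ran from Sdf4 at -0.26 to Rcn1 at 0.23, both genes of calcium-binding proteins. Store-operated entry had 6 of 11 genes tested and a median of -0.13, from Orai1, its channel pore, at -0.59 to Tmem110, a regulator of its sensor, at 0.30. Orai1 passed without si-SMaRT 1 (-1.05) and was at -0.12 without si-SMaRT 2, and Tmem110 was at -0.12 without si-SMaRT 1. Transport at the surface membrane and in mitochondria had 7 of 12 tested and a median of -0.031, with the highest value, 0.51, for Atp2b4, a surface calcium pump, in a row joined with the microRNA gene Mir6903. Channels of other tissues had 6 of 14 tested and a median of -0.043, from Cacng6, another gamma subunit, at -0.60 to the inositol trisphosphate receptor Itpr1 at 0.17. Cacng6 passed without si-SMaRT 1 (-0.84) and was at -0.36 without si-SMaRT 2, and Itpr1 was at -0.035 with GC and length trends removed.

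Surface excitation had 6 of 11 genes tested and a median of -0.19. Calcium sensors and buffers of the cytosol had 13 of 14 tested and a median of -0.17, from parvalbumin, Pvalb, at -0.81 to the calcineurin subunit Ppp3ca at 0.32. Ppp3ca passed without si-SMaRT 1 (0.59) and was at 0.060 without si-SMaRT 2, and Pvalb passed without either of them (-0.78 and -0.83). Of the pump regulators only Mrln, the myoregulin gene, was in the table used here, at -0.36. With the GC trend removed, Scn4a, the sodium channel of skeletal muscle, passed in the surface excitation list, and 2 cytosolic genes passed, Pvalb and Myoz2, a calcineurin-binding protein. These 3 were lower in si-SMaRT, as were 2.85% of the 10017 genes in this fit that passed as lower. Scn4a and Myoz2 were named after their values were seen.

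The 5 genes whose profile over the 4 samples lay nearest to the median profile of the 10 were Rnf41, Synj2, Syt12, Fkbp2 and Fgf21. Their root mean square distances to it were 0.017 to 0.029 on the centred log2 scale, over 4 samples and 11076 other genes. The median profile stood at 0.15 and 0.36 in si-SCR and at -0.048 and -0.46 in si-SMaRT. It was lowest in si-SMaRT 2, unlike Casq2 and Trdn, which were higher in si-SMaRT 2 than in si-SMaRT 1.

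The pull-down gave no peak on these genes. Of the 345 deposited peaks of the lnc-SMaRT pull-down, 0 touched an exon of any of the 10 on the same strand, and of the 336 peaks of the LacZ pull-down 0 did. The counts were 0 on either strand as well. Because the lists hold only called peaks of 1 library each, they do not limit how much of these transcripts was recovered. The share of all genes with a peak was not worked out, so the 0 has no background to be read against.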

How the data were processed

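Total RNA of 4 C2C12 samples was sequenced with a stranded, rRNA-depleted library kit. After trimming (Trimmomatic) and a Bowtie filter against rRNA and tRNA, the authors aligned reads to GRCm38 (TopHat), counted them per Ensembl gene (htseq-count), left out low genes and deposited RPKM values from edgeR that rest on TMM library sizes. The p-value of each peak was deposited by the authors from Piranha.

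Here limma 3.58.1 (R 4.3.3, trended prior) was run on log2(RPKM + 0.1) for 11086 genes whose mean RPKM reached 0.5, and p-values were adjusted by Benjamini-Hochberg (threshold 0.05). Fold changes on this scale understate the change of low genes. The reads behind the values were worked out from their steps. All 4 values of 11642 rows were whole multiples of 1 read (tolerance 0.01), with effective library sizes of 12654120 and 14132628 (si-SCR 1 and 2) and 11291255 and 14312935 (si-SMaRT 1 and 2). Gene lengths fixed the number of reads in 5498 rows, and the others are lower limits. Counting errors cover the reads only. GC content and positions came from GENCODE M21, and the GC trend of each sample was removed by loess (span 0.3). GC removal is an alternative, not the main test. Peaks were compared with bedtools 2.31.1. The main fit was tested on simulated reads without a GC trend, and the GC removal on a straight-line trend added to a sample. These simulations do not cover the difference between the si-SMaRT samples seen here.

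The 10 genes and the lists were chosen with earlier results of these data known. Named genes are the 10, those past the threshold and the highest and lowest of each list, the 5 with the nearest profile and lnc-SMaRT. The alternatives were other pseudocounts, filters, scalings and blocks, GC and length trends, voom and each sample left out. Leaving samples out after GC removal, GC removal for the ratios and a crossed block were chosen after seeing the data. Some named genes of this rule are withheld and not reported here.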

Additional observations from a re-analysis of the deposited data

How the results depend on the processing

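The 56 genes past the threshold became 37 under quantile normalization, 479 with the GC trend removed, 595 with GC and length trends removed, 104 with voom and 24 to 2908 with single samples left out. The 0 of the 10 genes became 3 with GC removal, 4 with GC and length removal, and 0 to 8 without single samples, or 0 to 5 without single samples after GC removal. Their median of -0.53 ran from -0.76 to -0.31 without single samples and from -0.55 to -0.33 without single samples after GC removal. The 0 of the other listed genes became 8 with GC removal, 10 with GC and length removal, 1 with voom (Hrc) and 0 to 26 without single samples. The cause of these shifts was not tested, apart from the construction of the GC and length removal. Peaks stayed at 0 under every overlap rule tried.

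Whether the replicate numbers pair the samples is not known. Deviations of same-numbered samples correlated across genes at -0.36 as deposited and at -0.19 with the GC trend removed. A correlation across genes cannot settle the pairing, because sample-wide trends such as that along GC content enter it. With the number as a replicate block, 96 genes and 0 of the 10 passed, and with GC removal 137, 1 of the 10 (Trdn) and 3 of the other listed genes. Crossed pairing, chosen after seeing the data, gave 487 genes and 2 of the 10.

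Fold changes turned sign as follows. Ryr1 ran from -0.65 to 0.19 without single samples, and was at 0.12 and 0.043 after GC removal without si-SCR 2 and si-SMaRT 2. Cacna1s ran from -0.68 to 0.000841 without single samples. Atp2a2 was at 0.048 under quantile normalization, ran from -0.203 to 0.081 without single samples, and was at 0.048 and 0.11 after GC removal without si-SCR 2 and si-SMaRT 2. Homer1 was at -0.039 with GC and length removal and ran from -0.048 to 0.62 without single samples. Itpr1 was at -0.035 with GC and length removal. Without single samples Tmem110 ran from -0.12 to 0.72. The log2 ratio of Ryr1 to Ryr3 differed by -0.15 to 0.58 without single samples. That of Atp2a1 to Atp2a2 differed by -0.86 to -0.25. With 2 samples per group, 1 sample can decide a call.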
